A study of Homo sapiens with 6 samples.

Results

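ATF4 is the transcription factor that carries out the integrated stress response. Kinases that sense amino acid shortage, unfolded protein, heme shortage or double-stranded RNA phosphorylate the initiation factor eIF2, which lowers protein synthesis in general but raises translation of the ATF4 mRNA. ATF4 then pairs with C/EBP proteins and other bZIP factors and switches on genes for amino acid synthesis and uptake, for one-carbon metabolism, and for a set of stress and feedback proteins. Because much of this control acts on translation and protein stability, the level of ATF4 mRNA is only a part of it.

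The genes described here are 31 members of this pathway, taken from a list of symbols: ATF4 itself, 8 stress and feedback genes, 13 amino acid and one-carbon enzymes, 3 bZIP partners and 6 secreted, receptor, translation, tRNA export and other genes. All 31 were found among the 65988 gene identifiers of the count files, and all 31 passed the filter on low counts that left 16105 genes to test. The rule that lists them uses symbols and no measured value, although results of these data were known when the list was made. U87MG, an established human glioblastoma cell line of wild-type genotype by its label, was sequenced as 3 control libraries from cells given vehicle and 3 libraries from cells given RSL3 at 2 µM, a compound that inhibits the lipid peroxide-reducing enzyme GPX4. Exposure lasted 24 h by the study's description of its RNA-seq, and the sample labels give no time. Total counts ranged from 27813462 to 43306335 per library. The labels do not say whether libraries came from separate cultures, and the study describes its samples in general as biologically independent. If they did not, p-values measure only the spread between these libraries, which may be technical.

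Of the defining glial and glioblastoma markers, VIM, CD44, CHI3L1 and EGFR were abundant, whereas S100B and SOX2 were at or near 0. The summed normalized count of the 9 markers was 104573 to 106394 in control libraries and 83951 to 88338 in RSL3-treated libraries; VIM, CD44 and CHI3L1 were downregulated, and GFAP, OLIG2, NES and EGFR were not called, with log2 fold changes above 0. Of the 16 markers of neurons, oligodendrocytes, microglia and endothelium, 5 passed the filter, and AIF1 and MOG had 0 counts in every library. In summed normalized counts, the neuron markers held 1029 to 1117 in control and 1129 to 1157 in RSL3-treated libraries, those of oligodendrocytes 81.2 to 106 and 147 to 161, those of microglia 94.3 to 111 and 70.6 to 103, and those of endothelium 66.8 to 97.1 and 30.1 to 50.9. Among the neuron markers SNAP25 fell (log2 fold change -1.04, edgeR adjusted p = 4.84e-05) while SYT1 rose (0.24, edgeR adjusted p = 0.00214). The part of these shifts in the results below was not tested. In a bulk sample, fewer cells that use a gene and less of its RNA per cell cannot be told apart.

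Genes of the ATF4 pathway were called in both directions, as were genes in general. Of the 31 genes, 10 were upregulated and 7 downregulated at an adjusted p under 0.05 in edgeR's quasi-likelihood test, and 14 were not called. Over all genes tested, 25.6% were called, 12.9% as higher and 12.7% as lower. The members are abundant genes, in which small changes are easier to call, and 30 of them had a mean normalized count of at least 1000. Among all 6358 genes at that level, 41.5% were called, 21.8% as higher and 19.8% as lower. Of the 30 members 56.7% were called, 33.3% as higher and 23.3% as lower. The share of members called lower was near that of all genes at that level. In 21 of the 31 members the 3 RSL3-treated libraries lay all above or all below the 3 control libraries, which held for 38.6% of all genes tested and 53.9% of those at the higher level. The median log2 fold change of the members was 0.024, beside -0.0044 over all genes tested, and no member reached a log2 fold change of 1 in either direction. Normalized counts are counts scaled by TMM factors to the mean library size, and log2FC is the log2 fold change of RSL3 over control, given with its standard error (SE).

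The changes were uneven in size. GDF15, STC2, ATF5, PPP1R15A and CHAC1 rose by log2FC values between 0.34 and 0.61, while 11 of the 17 called members changed by less than 0.2 in either direction. The largest decrease was that of ALDH18A1, at -0.23. The RSL3-treated replicate 3 had the lowest of the 3 RSL3-treated values in 9 of the 10 upregulated members and the highest in 4 of the 7 downregulated members, ATF4 not among them, and it was also the RSL3-treated library nearest to the controls on the first principal component of all genes tested.

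**Figure D1:**
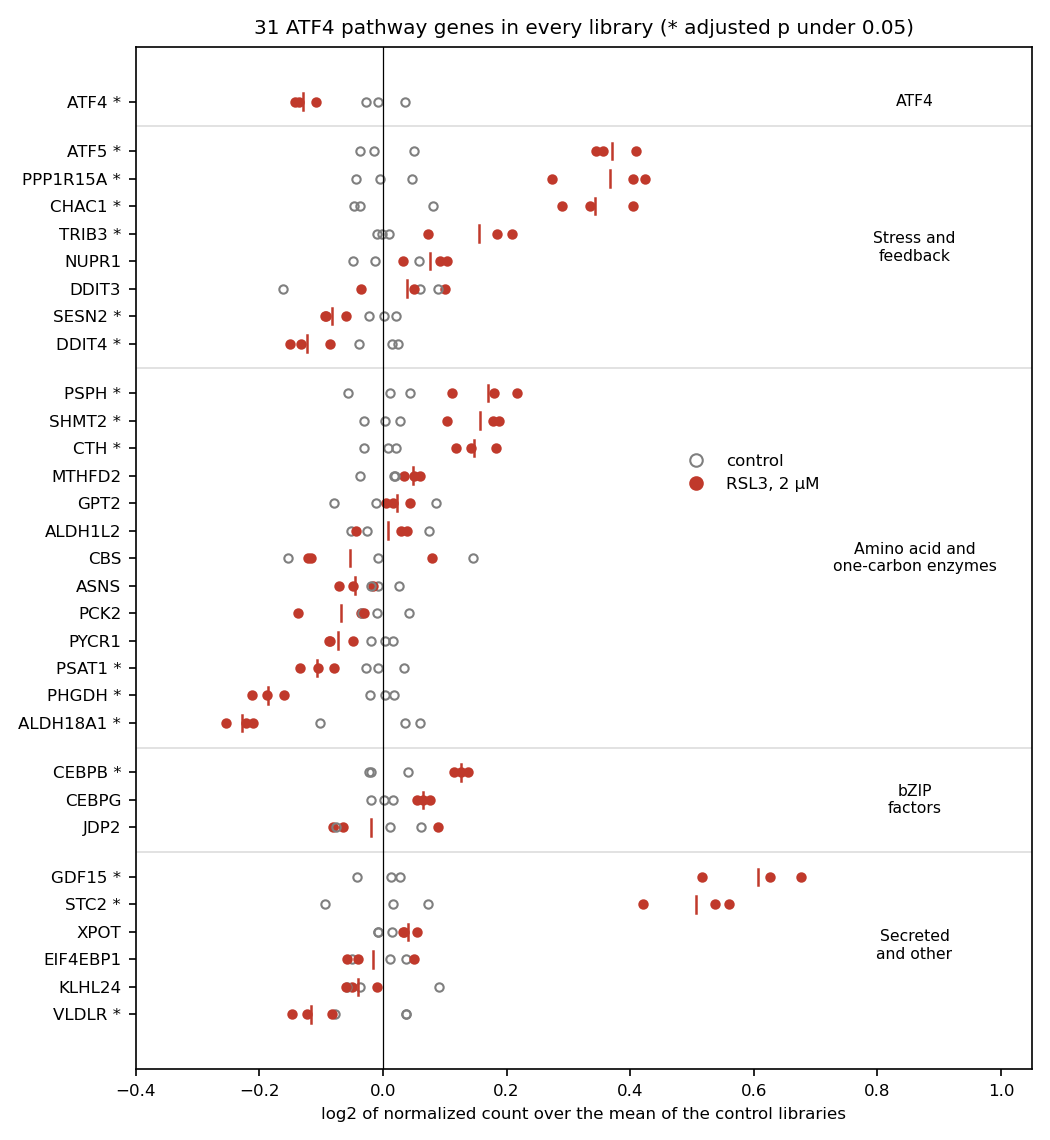
Each point is 1 library, placed by the log2 of its normalized count over the mean of the 3 control libraries; open grey points are control, red points RSL3-treated, and the red bar is the mean of the 3 RSL3-treated points. Genes are ordered by log2FC within each role, asterisks mark an adjusted p under 0.05, and GDF15 and STC2 lie farthest to the right.

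ATF4 binds composite sites, which join a C/EBP site to an ATF site, in the promoters of its targets. The letters TGATGNAA, the core of such a site, were searched on both strands of the RefSeq promoter windows of GRCh38.p14, which run from 250 bases before to 50 bases after each transcript start; TGATGCAA, a stricter form that is contained in it, and the cyclic AMP response element TGACGTCA, a site for other ATF and CREB dimers, were searched as well. Windows were found for 24 members and not for PSPH, PYCR1, GPT2, EIF4EBP1, ALDH1L2, NUPR1 and SHMT2. The core was present in 4 of the 24 members (16.7%), ASNS, CEBPG, CHAC1 and JDP2. It was present in 4.46% of the 27305 genes with a window (3.62% of all windows) and in 3.04% of tested genes with one. The stricter form was present in CEBPG, CHAC1 and JDP2 (12.5% of the 24). It was present in 1.08% of genes with a window (0.866% of all windows) and in 0.801% of tested genes with one. The cyclic AMP response element was present in PPP1R15A alone of the members (4.17% of the 24), and in 2.25% of genes with a window (1.85% of all windows). Among tested genes with a window its share was 3.75%, close to that of the members. The stretches around the matches are shown because they set apart members with and without the letters. Distances are from a RefSeq transcript start, and every stretch lies within the longer span of its gene in GENCODE v44. Those of CHAC1, ASNS and PPP1R15A are in or near an annotated exon. Each is given 5′ to 3′ on the strand of its gene, with the match in capitals.
CHAC1, chr15:40953251-40953280, plus strand, match 209 to 202 bases before the start and on the opposite strand: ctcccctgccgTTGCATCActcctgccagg
CEBPG, chr19:33374045-33374104, plus strand, match 42 to 35 bases before the start: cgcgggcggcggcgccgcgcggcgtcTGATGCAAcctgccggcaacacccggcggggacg
JDP2, chr14:75427980-75428021, plus strand, match 16 to 9 bases before the start: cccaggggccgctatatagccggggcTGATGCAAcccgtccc
ASNS, chr7:97872458-97872487, minus strand, match 68 to 61 bases before the start: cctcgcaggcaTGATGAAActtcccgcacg
PPP1R15A, chr19:48872352-48872381, plus strand, match 58 to 51 bases before the start: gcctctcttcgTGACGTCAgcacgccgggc

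The matches were found in called and uncalled members. CHAC1 and PPP1R15A were upregulated, while CEBPG, JDP2 and ASNS were not called, and the members with the largest increases, GDF15 and STC2, had none of the searched letters in their windows. A match is a description of the letters, and sites outside a window were not searched.

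ATF4 (ENSG00000128272, chromosome 22 of GRCh38, 39519695 to 39522683) fell. It had 28981, 28122 and 27764 normalized counts in control replicates 1, 2 and 3, and 26252, 25733 and 25641 in RSL3-treated replicates 1, 2 and 3. The lowest control library was above the highest RSL3-treated library. The log2FC was -0.13 (SE 0.027, edgeR adjusted p = 0.00121), a fold of 0.915 with a 95% interval of 0.879 to 0.951. The ATF4 protein was not measured in these files.

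Of the 8 stress and feedback genes, 4 were upregulated (50.0%) and 2 downregulated (25.0%), with a median log2FC of 0.12. All genes tested had 12.9% and 12.7%, and those at 1000 or more normalized counts 21.8% and 19.8%. The upregulated genes were PPP1R15A, ATF5, CHAC1 and TRIB3, and the downregulated genes were DDIT4 and SESN2. DDIT3 and NUPR1 were not called.

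PPP1R15A (ENSG00000087074, chromosome 19, 48872212 to 48876059) encodes GADD34, the inducible partner of the phosphatase that removes phosphate from eIF2 and so ends the response. Its normalized counts were 8958, 8640 and 8409 in control libraries and 11471, 11634 and 10481 in RSL3-treated libraries. The groups were well apart, with a log2FC of 0.37 (SE 0.037, edgeR adjusted p = 1.79e-07).

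ATF5 (ENSG00000169136, chromosome 19, 49928702 to 49933935), a bZIP factor whose mRNA is under translational control much like that of ATF4, went from 4847, 4563 and 4634 to 6219, 5944 and 5992 normalized counts. Every RSL3-treated library exceeded every control library by a wide margin, with a log2FC of 0.37 (SE 0.034, edgeR adjusted p = 4.81e-08). In GENCODE v44 other genes, among them NUP62 and IL4I1 on the opposite strand, cover 22.1% of its exon bases. Strand was not used in counting, so reads there cannot be assigned if the annotation used for counting holds the same exons.

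CHAC1 (ENSG00000128965, chromosome 15, 40952962 to 40956512) encodes an enzyme that breaks down glutathione and is a widely used marker of the response. It had 2803, 2583 and 2564 normalized counts in control libraries and 3506, 3344 and 3240 in RSL3-treated libraries. The groups did not overlap, and the log2FC was 0.34 (SE 0.042, edgeR adjusted p = 2.41e-06), a fold of 1.27 with a 95% interval of 1.19 to 1.35. Its paralog CHAC2 was little expressed, averaging 70.3 ± 11.4 normalized counts without and 82.1 ± 2.77 with RSL3 (SD, n = 3 each), and was not called.

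TRIB3, a pseudokinase that binds ATF4 and the DDIT3 protein and dampens their activity, rose less. Control libraries held 7302, 7206 and 7246 normalized counts and RSL3-treated libraries 8377, 8240 and 7629. The control libraries lay close together and RSL3-treated replicate 3 lay nearest to them, for a log2FC of 0.16 (SE 0.034, edgeR adjusted p = 0.00173). The paralog TRIB2 went down, averaging 825 ± 130 normalized counts without and 537 ± 35.9 with RSL3 (SD, n = 3 each), for a log2FC of -0.62 (edgeR adjusted p = 2.50e-05), and TRIB1 was not called.

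DDIT3 encodes CHOP, the bZIP factor most often read as the pro-death arm of the response. Its normalized counts were 9590, 9780 and 8223 in control libraries and 9858, 9527 and 8973 in RSL3-treated libraries. The groups overlapped, and replicate 3 was the lowest library of each. The log2FC was 0.040 (edgeR adjusted p = 0.610), and the 95% interval of the fold ran from 0.959 to 1.10. Other genes, MARS1 and MBD6 on the opposite strand among them, cover 39.6% of the exon bases of DDIT3. NUPR1, a small nuclear stress protein, had 20699, 19225 and 19698 normalized counts in control libraries and 21176, 20331 and 21351 in RSL3-treated libraries, which overlap (edgeR adjusted p = 0.0817); it was called higher without control replicate 1 (edgeR adjusted p = 0.0168).

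The 2 downregulated stress genes both restrain the growth kinase mTORC1. DDIT4 (REDD1) had 10512, 10579 and 10126 normalized counts in control libraries and 9375, 9491 and 9807 in RSL3-treated libraries, without overlap. It fell by 8.13% (log2FC -0.12, edgeR adjusted p = 0.00498). SESN2, a leucine sensor and antioxidant protein, had 12366, 12202 and 11993 normalized counts in control libraries and 11696, 11418 and 11431 in RSL3-treated libraries. The gap between the groups was narrow, with a log2FC of -0.082 (edgeR adjusted p = 0.0402), and with any 1 of RSL3-treated replicates 1 to 3 or of control replicates 1 and 2 left out the gene was no longer called, the adjusted p reaching 0.159. Paralogs of both also declined where called: DDIT4L had a log2FC of -0.53 (edgeR adjusted p = 0.00621) and SESN3 one of -0.29 (edgeR adjusted p = 0.0469), while SESN1, at -0.16, was not called.

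**Figure D2:**
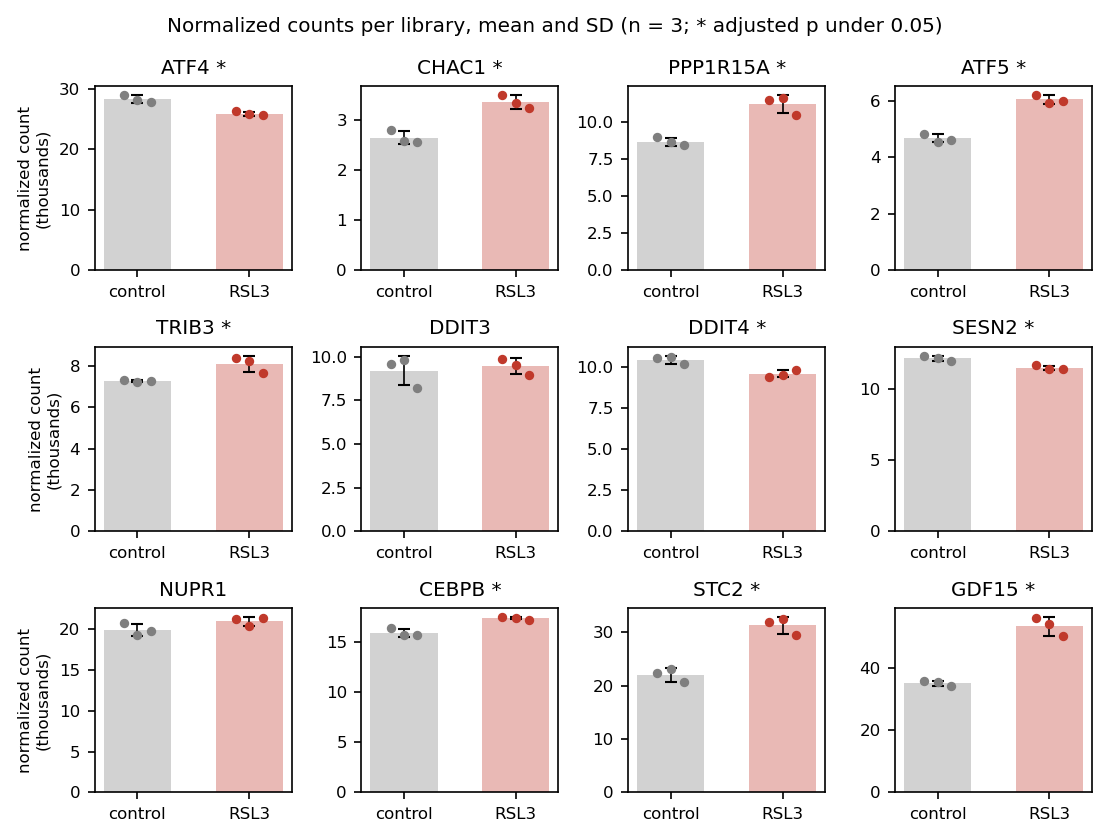
Bars give the mean normalized count (axis in units of 1000) of 3 libraries, error bars the SD and points the libraries, each vertical axis starting at 0; asterisks mark an adjusted p under 0.05. ATF4, DDIT4 and SESN2 are lower after RSL3, and CHAC1, PPP1R15A, ATF5, TRIB3, CEBPB, STC2 and GDF15 are higher.

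The 13 amino acid and one-carbon enzymes divided evenly. Upregulated were PSPH, SHMT2 and CTH, downregulated were PHGDH, PSAT1 and ALDH18A1, and the other 7 were not called, for a median log2FC of -0.043. Each direction held 23.1% of the enzymes, near the 21.8% higher and 19.8% lower among all genes at 1000 or more normalized counts. Over all genes tested the shares were 12.9% and 12.7%. The summed level of the 13 enzymes was 2810 ± 31.2 (SD, n = 3) CPM (counts scaled by library size and TMM factor) without RSL3 and 2769 ± 2.77 (SD, n = 3) with it, a difference of -1.45%. The 8 stress and feedback genes together had 2197 ± 61.4 (SD, n = 3) CPM without RSL3 and 2351 ± 41.1 (SD, n = 3) with it, which is 7.02% more. The difference between these 2 sets was not tested.

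Serine is made from a glycolytic intermediate in 3 steps, and the genes of these steps did not move together. PHGDH, the first and committed enzyme, had 14167, 14010 and 13780 normalized counts in control libraries and 12281, 12075 and 12518 in RSL3-treated libraries, clearly apart (log2FC -0.19, SE 0.029, edgeR adjusted p = 4.52e-05). PSAT1, the aminotransferase of the second step, had 18816, 19371 and 18565 normalized counts in control libraries and 17583, 17243 and 17907 in RSL3-treated libraries (log2FC -0.11, edgeR adjusted p = 0.00860). Its call was lost without control replicate 2 (edgeR adjusted p = 0.0561) and without RSL3-treated replicate 2 (edgeR adjusted p = 0.0777). PSPH, the phosphatase of the last step, went the opposite way, from 1748, 1708 and 1630 to 1970, 1920 and 1833 normalized counts (log2FC 0.17, SE 0.044, edgeR adjusted p = 0.00694).

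The mitochondrial folate enzymes turn serine into one-carbon units and NAD(P)H. SHMT2, which takes the carbon from serine, had 12681, 12469 and 12190 normalized counts in control libraries and 14175, 14088 and 13371 in RSL3-treated libraries. All RSL3-treated values were above the controls, with a log2FC of 0.16 (SE 0.031, edgeR adjusted p = 0.000585). MTHFD2, the dehydrogenase of the next step, was not called at a log2FC of 0.048 (edgeR adjusted p = 0.245), although its libraries did not overlap, and ALDH1L2, which burns one-carbon units to carbon dioxide, was not called at 0.0091. A pair of paralogs outside the member list rose: MTHFD2L averaged 1278 ± 34.1 normalized counts without and 1649 ± 43.1 with RSL3, as SD over 3 libraries each (log2FC 0.37, edgeR adjusted p = 3.45e-06), and MTHFD1L had a log2FC of 0.094 (edgeR adjusted p = 0.0402). The cytosolic counterparts SHMT1 and MTHFD1 had log2FC values of -0.10 and -0.12 (edgeR adjusted p = 0.361 and 0.00902); MTHFD1 was singled out after its values were seen.

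ALDH18A1, which makes the precursor of proline and ornithine from glutamate, had 1956, 1778 and 1990 normalized counts in control libraries and 1600, 1650 and 1637 in RSL3-treated libraries. It fell by 14.8%, the largest decrease among the 31 genes (log2FC -0.23, SE 0.046, edgeR adjusted p = 0.000741). PYCR1, which completes proline, had a log2FC of -0.074 and was not called (edgeR adjusted p = 0.161), although its RSL3-treated libraries were all below the controls. Other annotated genes share 29.7% of the exon bases of PYCR1, as they do 14.1% of those of MTHFD2 and 16.5% of those of NUPR1.

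Transsulfuration makes cysteine, a building block of glutathione, from homocysteine. CTH, its last enzyme, had 4113, 4153 and 4007 normalized counts in control libraries and 4515, 4644 and 4438 in RSL3-treated libraries. The libraries were apart, and the log2FC was 0.15 (SE 0.033, edgeR adjusted p = 0.00210). CBS, the enzyme before it, averaged only 205 ± 21.3 normalized counts without and 198 ± 16.0 with RSL3 (SD, n = 3 each). GRCh38 holds a near-identical copy of CBS on chromosome 21, between which reads can be divided or lost, so its level is uncertain.

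ASNS (asparagine synthetase), GPT2 (mitochondrial alanine aminotransferase) and PCK2 (mitochondrial phosphoenolpyruvate carboxykinase) were not called, with log2FC values of -0.045, 0.024 and -0.069. ASNS, one of the best known ATF4 targets, had 13532, 13215 and 13106 normalized counts in control libraries and 12843, 13136 and 12649 in RSL3-treated libraries, which overlap. Its fold had a 95% interval of 0.929 to 1.01. In GENCODE v44 a gene model without a symbol on the same strand (ENSG00000284707) covers 49.3% of its exon bases. Whether the annotation used for counting holds this model is not known.

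**Figure D3:**
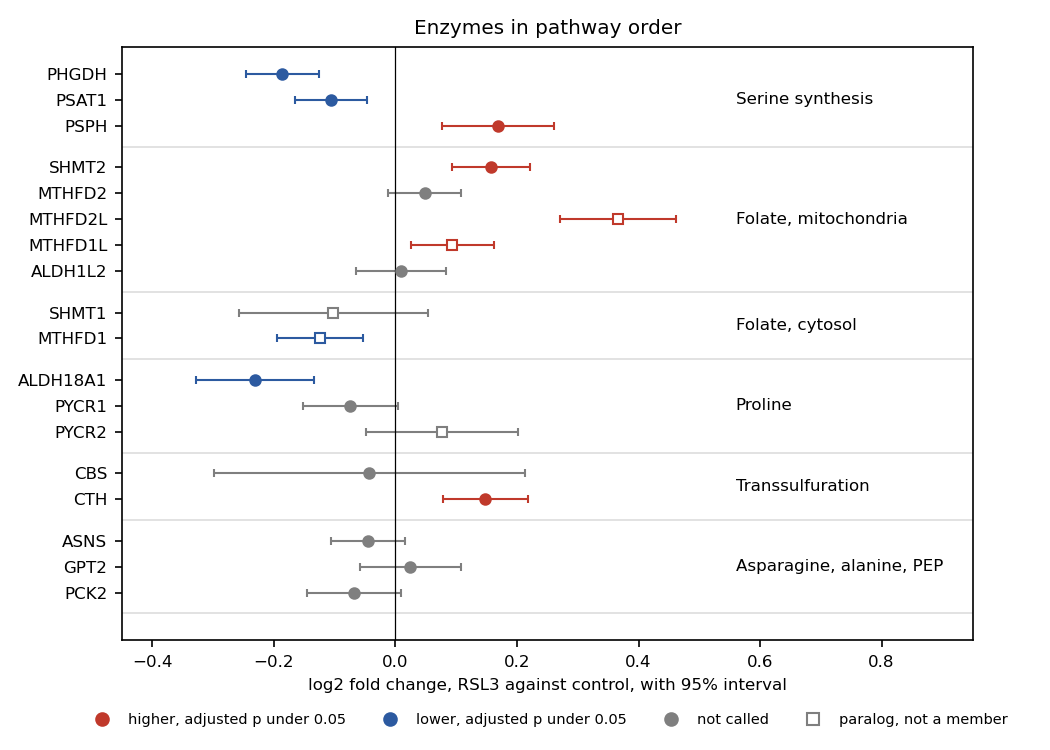
Points give the log2FC of RSL3 over control with its 95% interval for the 13 enzyme members (circles) and 5 paralogs (open squares), ordered by pathway; colour gives the call at an adjusted p under 0.05. PHGDH and PSAT1 lie below 0 and PSPH above it, and MTHFD2L is the highest of the folate genes.

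Among the bZIP partners, CEBPB, a C/EBP protein that is both an ATF4 target and its dimer partner, had 16365, 15688 and 15662 normalized counts in control libraries and 17489, 17363 and 17221 in RSL3-treated libraries. It rose by a log2FC of 0.13 (SE 0.029, edgeR adjusted p = 0.00219), the smallest of the upregulated members, and CEBPB-AS1 on the opposite strand covers part of its exon bases (12.6%). CEBPG, which forms heterodimers with ATF4, and JDP2, a repressor of the AP-1 family, were not called. CEBPG had no overlap between the groups, at 6203 ± 77.3 (SD, n = 3) and 6491 ± 47.0 (SD, n = 3) normalized counts (edgeR adjusted p = 0.123).

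The strongest responses of the whole list were those of secreted proteins. GDF15 (ENSG00000130513, chromosome 19, 18374731 to 18389176), a stress hormone that acts on appetite centres of the brainstem, had 35859, 35528 and 34207 normalized counts in control libraries and 56273, 54298 and 50323 in RSL3-treated libraries. The lowest treated library was far above the highest control, for a log2FC of 0.61 (SE 0.034, edgeR adjusted p = 4.30e-11) and a fold of 1.52 (95% interval 1.45 to 1.60). STC2 (ENSG00000113739, chromosome 5, 173314723 to 173328447), a glycoprotein hormone induced by endoplasmic reticulum stress, had 22270, 23168 and 20643 normalized counts in control libraries and 31960, 32459 and 29497 in RSL3-treated libraries. It rose by 42.1% (log2FC 0.51, SE 0.038, edgeR adjusted p = 3.40e-09). By fold change these were numbers 261 and 354 of the 2082 upregulated genes, and no exon base of either is shared with another annotated gene.

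These 2 genes, picked as the members with the largest increases, held most of the net change in the pathway's total. All 31 members together had 9504 ± 175 (SD, n = 3) CPM without RSL3 and 10428 ± 188 (SD, n = 3) with it, which is 9.72% more. Without GDF15 and STC2 the sums were 7826 and 7938 CPM, a difference of 1.43%. This difference is a net of members that rose and members that fell.

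VLDLR, a lipoprotein receptor, had 2427, 2627 and 2626 normalized counts in control libraries and 2352, 2312 and 2419 in RSL3-treated libraries. The groups almost touched, the log2FC was -0.11 (edgeR adjusted p = 0.0434), and DESeq2 did not call it. With 1 library left out the adjusted p of VLDLR reached 0.171, and the call was lost without control replicate 2 or 3 and without RSL3-treated replicate 1 or 2. The translation repressor EIF4EBP1, the tRNA exporter XPOT and the ubiquitin ligase adaptor KLHL24 were not called, with log2FC values of -0.017, 0.041 and -0.037. For the 13 uncalled members other than CBS, the 95% interval bound farthest from 0 was at a log2FC of 0.15 in size.

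Compared per kilobase of exon, where genes can be ranked against each other, GDF15 was the most abundant member in control cells, at 495 CPM per kilobase. ATF4 followed at 317, CEBPB at 254 and PSAT1 at 251. At the other end VLDLR had 4.55 and CBS 0.884 CPM per kilobase. In RSL3-treated cells GDF15 reached 753 CPM per kilobase and ATF4 was at 290. Levels per kilobase rest on all exons annotated in GENCODE v44 and are low for genes with long, rarely used exons. A high level did not always go with a call: DDIT3, at 206 CPM per kilobase, was not called, and CHAC1, at 37.9, rose. Among members below the level of CHAC1 the largest log2FC in size was -0.23, that of ALDH18A1.

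**Figure D4:**
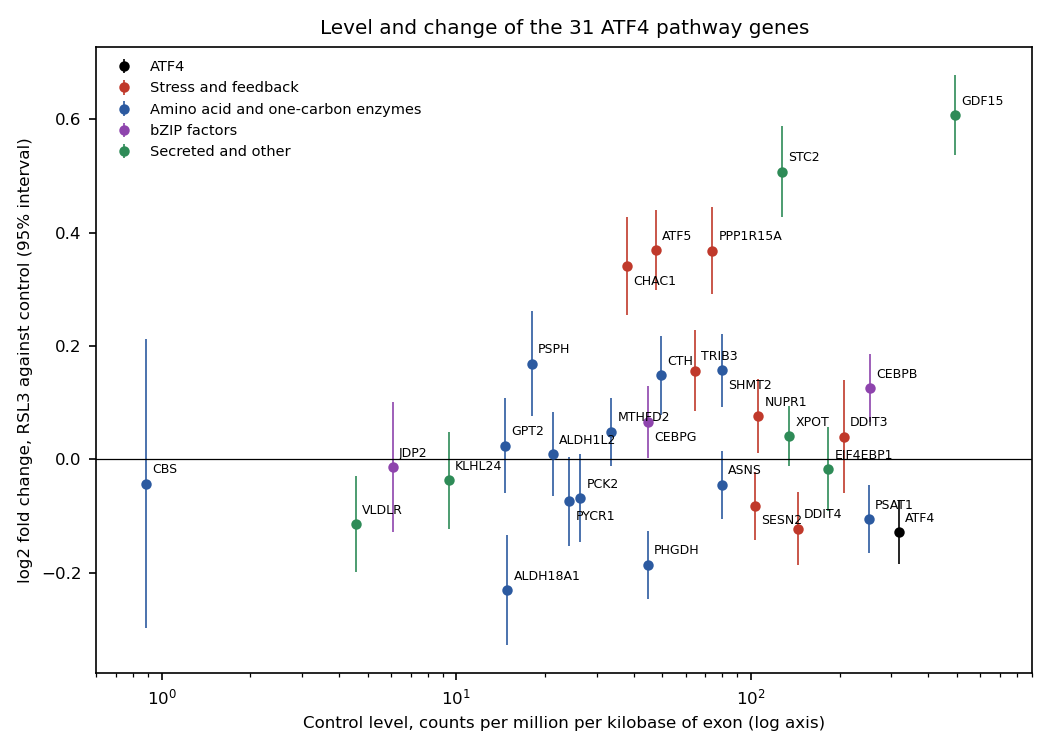
Each point is 1 of the 31 genes, placed by its mean control level in CPM per kilobase of exon (log axis) and by its log2FC, with the 95% interval; colours give the role. GDF15 is highest on both axes, and the intervals of the abundant ATF4 and PSAT1 lie below 0.

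Genes upstream of ATF4 were called at shares below that of all genes at 1000 or more normalized counts. Of 8 genes for eIF2 kinases and their activators, 1 was upregulated (12.5%) and 2 were downregulated (25.0%), 37.5% in all. Of all genes tested 25.6% were called, 12.9% as higher and 12.7% as lower. Among all genes at 1000 or more normalized counts the shares were 41.5%, 21.8% and 19.8%. The amino acid sensing cofactor GCN1 was higher (log2FC 0.099, edgeR adjusted p = 0.0359), while the GCN2 inhibitor IMPACT (-0.21, edgeR adjusted p = 0.000136) and the endoplasmic reticulum kinase gene EIF2AK3 (-0.22, edgeR adjusted p = 0.0147) were lower. Of 10 genes for eIF2, its exchange factor eIF2B and phosphatase adaptors, 2 were upregulated, EIF2B5 (0.15) and PPP1R15B (0.11), and 1 was downregulated, EIF2B1 (-0.14), 30.0% in all; the largest edgeR adjusted p of the 3 was 0.0385. PPP1R15B is the constitutive counterpart of PPP1R15A.

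Of 9 amino acid transporters known as ATF4 targets, 5 were upregulated (55.6%) and 1 was downregulated (11.1%), and their median log2FC was 0.082. Of all genes tested, 12.9% were higher and 12.7% lower, and of those at 1000 or more normalized counts 21.8% and 19.8%. The smallest p-values belonged to both chains of the cystine-glutamate exchanger: SLC7A11 averaged 15770 ± 694 normalized counts without and 22967 ± 847 with RSL3 (log2FC 0.54, edgeR adjusted p = 2.39e-10), and SLC3A2 averaged 71381 ± 3824 without and 99651 ± 3402 with it (log2FC 0.48, edgeR adjusted p = 8.35e-10; SD over n = 3 libraries throughout). SLC38A2, a glutamine transporter, was the 1 that fell, by a log2FC of -0.18 (edgeR adjusted p = 0.000109). SLC7A11 is also a known target of NRF2, the regulator of antioxidant genes. The other upregulated transporters, named after their values were seen, were SLC43A1 (log2FC 0.74, edgeR adjusted p = 6.37e-06), SLC7A5 (0.15, edgeR adjusted p = 0.000456) and SLC1A5 (0.082, edgeR adjusted p = 0.0345), which carry neutral amino acids.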

How the data were processed

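Poly(A) RNA of 6 U87MG libraries was sequenced from both ends. Reads were trimmed by the authors with Trimmomatic 0.36 and fastp, aligned to GRCh38.p4 with HISAT2, sorted with SAMtools 1.3.1 and counted on exons with HTSeq 0.6.1p1, without strand; the annotation release is not given in the sources used here. The deposited values are these counts per Ensembl gene, not normalized by the authors.

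Counts were tested in R 4.3.3 with edgeR 4.0.16: filterByExpr at a minimum count of 10, TMM factors, quasi-likelihood F test of RSL3 against control without covariates, and Benjamini-Hochberg adjustment over all 16105 genes tested, at 0.05. Standard errors are the log2 fold change over the square root of F. Members and lists were chosen with earlier results of these data known; the motifs searched, the summed levels and the level of 1000 normalized counts were chosen after seeing the data. All members are named. From other lists, the rule named the 2 genes of smallest p either way and paralogs of called members; SLC43A1, SLC7A5, SLC1A5 and MTHFD1 were named outside it, after their values were seen. Symbols, positions and exon overlaps come from GENCODE v44 (GRCh38) and promoter windows from RefSeq. The overlaps in the annotation used for counting may differ. Alternatives were DESeq2 1.42.0 without or with 1 surrogate variable (sva 3.50.0), other size factors, filters and thresholds, the replicate block, and each library left out. The scripts were tested on simulated data.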

Additional observations from a re-analysis of the deposited data

How the results depend on the processing

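Of the 17 called members, 17 kept their direction and 14 kept their call under all 13 alternatives other than stricter thresholds; SESN2, PSAT1 and VLDLR did not. With total counts in place of TMM the median log2 fold change of the members was 0.016. Without a filter on low counts, 1 stress and feedback gene was downregulated. DESeq2 shared 16 of the 17 calls, with or without a surrogate variable. Requiring a log2 change of 1 or more in size left 106 upregulated and 107 downregulated genes in edgeR, and 0 members, 0 stress and feedback genes, 0 enzymes and 0 other listed genes in either direction, since no member passed 0.66 under any alternative. An adjusted p under 0.01 left 1348 upregulated and 1343 downregulated genes, 1 downregulated stress and feedback gene and 8 downregulated genes of the other lists. With 1 library left out, 10 to 11 members were upregulated and 4 to 6 downregulated, fewest without control replicate 2 or RSL3 replicate 2; 1 to 2 stress and feedback genes were downregulated, 2 only without control replicate 3. The other lists then had 10 to 15 upregulated and 9 to 12 downregulated genes, fewest without RSL3 replicate 1 and 2 respectively, and the medians ranged from -0.0093 to 0.052 for the members and from -0.043 to 4.5e-05 for the enzymes. With 1 library left out, 7 members that were not called changed sign, in ranges of -0.017 to 0.051 (ALDH1L2), -0.050 to 0.0043 (EIF4EBP1), -0.12 to 0.032 (CBS), -0.068 to 0.018 (JDP2), -0.061 to 0.011 (KLHL24), -0.032 to 0.088 (DDIT3) and -0.010 to 0.069 (GPT2). Causes were not tested. Whether the replicate numbers pair the libraries cannot be decided from 3 libraries per group. Deviations from the group means correlated at 0.022, 0.027 and 0.074 for same-numbered libraries, and at -0.051 to 0.024 for the others. With the replicate block, 11 members were upregulated and 7 downregulated, NUPR1 being the addition (edgeR adjusted p = 0.0135). CBS was the least counted member and had the widest 95% interval of the fold, 0.813 to 1.16.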

Other observations

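Cytosolic aminoacyl-tRNA synthetases charge tRNAs with amino acids, and several are known ATF4 targets. Of 12, 3 were upregulated (25.0%) and 1 downregulated (8.33%), with a median log2 fold change of 0.038. The shares were 12.9% and 12.7% of all genes tested, and 21.8% and 19.8% of those at 1000 or more normalized counts. The genes with the smallest p were MARS1 (0.18, edgeR adjusted p = 7.39e-05) and GARS1 (0.13, edgeR adjusted p = 0.00109), and SARS1 was the lower one at -0.076 (edgeR adjusted p = 0.0495). MARS1 shares exon bases with DDIT3 on the opposite strand, 13.3% of its own bases being covered by other genes.

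GDF15, SESN2 and DDIT4 are also known as p53 targets. Of 12 other p53 target genes, 3 were upregulated (25.0%) and 5 downregulated (41.7%), with a median log2 fold change of -0.13. Beside these stand 12.9% and 12.7% of all genes tested, and 21.8% and 19.8% of those at 1000 or more normalized counts. FAS (-0.28, edgeR adjusted p = 0.000763) and BBC3 (-0.31, edgeR adjusted p = 0.00107) had the smallest p among those that fell, and TNFRSF10B (0.15, edgeR adjusted p = 0.00104) and GADD45A (0.17, edgeR adjusted p = 0.00147) among those that rose.

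Of the 89 genes tested that had TGATGCAA in a promoter window, 18 were upregulated (20.2%) and 16 downregulated (18.0%). Their median log2 fold change was -0.0041. For TGATGNAA the numbers were 57 (16.9%) and 59 (17.5%) of 338. These shares lay between those of all genes tested (12.9% and 12.7%) and of genes at 1000 or more normalized counts (21.8% and 19.8%).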
